A study of Mus musculus with 16 samples.

Results

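The NF-κB transcription factor family and its feedback inhibitors were examined in brain libraries labelled as microglia, from mice with experimental autoimmune encephalomyelitis (EAE), a model of multiple sclerosis. The genes were chosen by symbol and comprised the DNA-binding subunits Nfkb1, Nfkb2, Rela, Relb and Rel, the IκB family members Nfkbia, Nfkbiz and Bcl3, and the ubiquitin-editing inhibitor Tnfaip3 with its partner Tnip1. All 10 genes were found among the 21878 mRNAs of the count and FPKM tables, and all 10 were among the 17885 mRNAs that were tested, for which the 16 libraries summed to 16 counts or more. RNA-seq was performed on 16 stranded total RNA libraries, 8 from EAE mice and 8 from PBS-treated mice. The comparison asks which mRNAs differ between libraries labelled as microglia from diseased and control brains. All mice were wild-type female C57BL/6 animals aged 8 weeks. EAE mice received the peptide MOG35-55 in complete Freund's adjuvant under the skin, with 200 ng of pertussis toxin on days 0, 2 and 7, whereas control mice received PBS. The treatment labels name an end residue of the peptide that rises from 55 in replicate 1 to 62 in replicate 8, while the protocol names 55 throughout. Brains were taken on day 14, at peak disease, and cells were sorted on CD11b with intermediate CD45, so that 1 gate was sampled at 1 time point.

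NF-κB proteins act as dimers that are held in the cytoplasm by IκB proteins until the IκB kinase (IKK) complex marks the inhibitor for degradation. The freed dimer enters the nucleus and switches on inflammatory genes, among them the genes of its own inhibitors, which closes a negative feedback loop. In microglia the pathway acts downstream of Toll-like receptors and of the receptors for tumour necrosis factor and interleukin-1.

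Feedback of this kind is known to act through κB sites near the start of a gene, and the reference promoters were searched for them. RefSeq windows of the 250 bases before a start site (GRCm38.p6) were held for 7 of the 10 genes, in 10 windows, and were searched on both strands for the κB consensus, with overlapping matches counted. At least 1 match was found for 5 of the 7 genes, in 7 of the 10 windows, whereas 7.251% of 32851 mouse windows of the same length held one. The windows of Rela and Bcl3 held no match to the consensus. The following stretches of windows are shown because they hold a match and lie outside the annotated gene span, with matches in capitals. All 250 bases are printed for Nfkbia, 249 for Rel and 234 for Tnip1, the bases nearest the start being left out for Rel and Tnip1. Each stretch is read 5′ to 3′ on the minus strand, which is that of the gene. They lie at chr12:55492648-55492897 for Nfkbia, chr11:23770971-23771219 for Rel and chr11:54962957-54963190 for Tnip1.
Nfkbia: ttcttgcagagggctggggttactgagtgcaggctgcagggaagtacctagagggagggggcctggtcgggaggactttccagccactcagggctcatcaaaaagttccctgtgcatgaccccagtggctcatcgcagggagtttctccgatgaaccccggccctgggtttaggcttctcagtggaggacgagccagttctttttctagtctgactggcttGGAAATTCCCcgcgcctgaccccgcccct
Rel: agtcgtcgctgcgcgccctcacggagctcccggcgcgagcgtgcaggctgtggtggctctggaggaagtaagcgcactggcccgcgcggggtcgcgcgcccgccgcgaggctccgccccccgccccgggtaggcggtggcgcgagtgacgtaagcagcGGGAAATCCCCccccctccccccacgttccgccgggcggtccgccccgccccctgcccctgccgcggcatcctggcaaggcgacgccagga
Tnip1: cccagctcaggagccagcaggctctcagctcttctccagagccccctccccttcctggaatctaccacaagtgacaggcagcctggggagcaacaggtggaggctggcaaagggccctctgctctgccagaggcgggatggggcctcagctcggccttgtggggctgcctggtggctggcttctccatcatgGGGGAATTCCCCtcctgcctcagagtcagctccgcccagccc

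The match of Nfkbia lay 20 to 29 bases before the start, that of Rel 82 to 92 bases before it and that of Tnip1 47 to 58 bases before it. These distances are counted from the end of the full window, not of the printed stretch. For Nfkb2 and Tnfaip3, the matches nearest to a start are shown with their surroundings only. Their windows lie within the annotated gene span or reach only 3 bases beyond it.
Nfkb2: gggccgaaaGGGGCTTTCCc
Nfkb2: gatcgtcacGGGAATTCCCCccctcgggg
Tnfaip3: atttccatcGGAAATCCCCct
Tnfaip3: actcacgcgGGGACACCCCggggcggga
These runs of letters are descriptions of the reference sequence, and binding was not measured.

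Library depth was even, with total counts of 24587443 to 30244215 for EAE libraries and 26031889 to 34184576 for PBS libraries. The labelled cell type was present but did not dominate the libraries. The microglial genes Tmem119 and P2ry12 had mean FPKM values of 7.94 and 6.81 over the 16 libraries, against 210 for the neuronal gene Snap25, 121 for the astrocytic gene Gfap and 553 for the myelin gene Mbp. Summed FPKM over 17 microglial markers was 240 to 388 in EAE mice (median 339) and 222 to 362 in PBS-treated mice (median 261), below the sums of 12 neuronal markers (1139 to 1436), 9 astrocytic markers (1186 to 1810) and 9 oligodendrocyte markers (939 to 1315) in all 16 libraries. Summed FPKM of 17 neutrophil markers was 55.6 to 107 in EAE mice and 24.1 to 61.9 in PBS-treated mice. No gene of these lists was at 0 in every library. The 3 EAE libraries 6, 7 and 8 and the 3 PBS libraries 5, 7 and 8 were more alike than the rest: the squared difference between a pair, relative to counting noise, was 3.12–3.51 and 3.3–3.91 within these sets and 5.64–20.1 and 6.63–19.5 for the other pairs of each group. Neither the labels nor the methods name a batch, so every comparison was repeated within these 6 libraries and within the other 5 of each group.

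No difference between EAE and PBS-treated mice was detected for any of the NF-κB genes at the spread of these libraries. In the quasi-likelihood test of edgeR, adjusted by Benjamini-Hochberg over all tested mRNAs, 0 of 10 genes had an adjusted p under 0.05, against 2.42% of all tested mRNAs, and 0 of 10 had an unadjusted p under 0.05, against 17.4%. No gene of the 10 was a DEmRNA, for which the methods ask an adjusted p under 0.05 and a |log2FC| over 1, against 0.117% of all mRNAs. DESeq2 and the edgeR exact test also gave 0 of 10 on both counts. The log2FC was above 0 for 9 of 10 genes, all but Nfkbia, with a median of 0.13, while 52.7% of all mRNAs lay above 0 with a median of 0.00915. For 9 of 10 genes the 95% interval of the log2FC lay between −1 and 1, so that a change of the size required for a DEmRNA was outside it. CPM of the groups overlapped for all 10 genes, as did FPKM, and 0.369% of all mRNAs had groups whose CPM did not overlap. In libraries of many cells, fewer cells of a type and less RNA per cell cannot be told apart. The plot of FPKM by library shows the overlap.

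**Figure D1:**
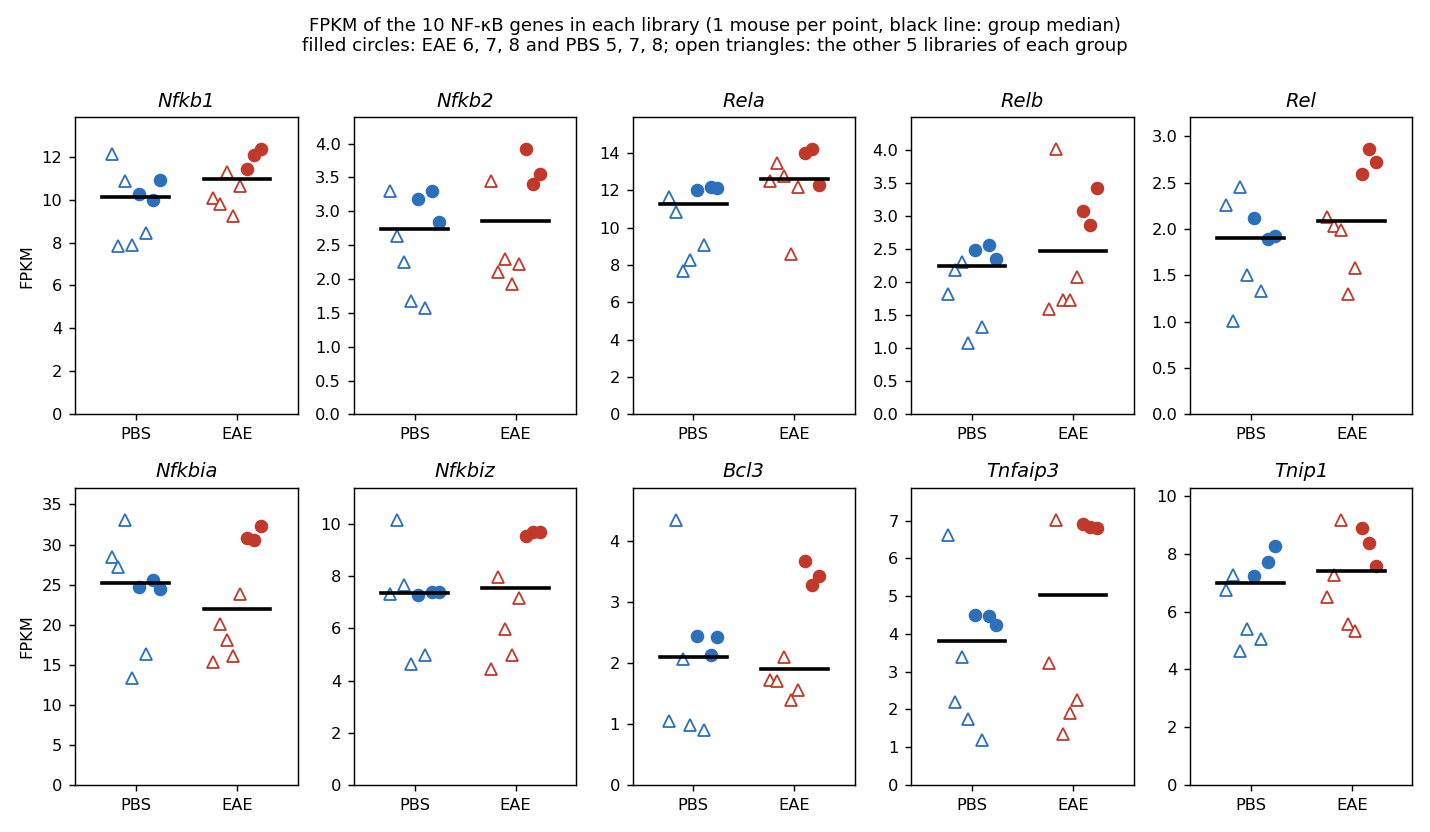
FPKM (vertical axis, from 0) of each of the 10 NF-κB genes in the 8 PBS and 8 EAE libraries, with 1 point per mouse and a black line at the group median. Filled circles are EAE 6, 7, 8 and PBS 5, 7, 8, and open triangles are the other 5 libraries of each group. The groups overlap for every gene, while the filled circles of EAE all lie above those of PBS for each gene except Tnip1.

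The levels of the 10 genes spanned about an order of magnitude. By mean FPKM over all 16 libraries, which is scaled for transcript length, Nfkbia was highest at 23.8, followed by Rela at 11.5, Nfkb1 at 10.3, Nfkbiz at 7.27, Tnip1 at 6.94, Tnfaip3 at 4.04, Nfkb2 at 2.73, Relb at 2.29, Bcl3 at 2.20 and Rel at 1.98. Nfkbia exceeded Rela, and Tnip1 exceeded Tnfaip3, in 16 of 16 libraries. Nfkb1 exceeded Nfkbiz in 15 of 16 libraries, Nfkb2 exceeded Relb in 14 of 16 and Rela exceeded Nfkb1 in 12 of 16. For the remaining neighbours the order of the means held in 9 of 16 libraries for Nfkbiz over Tnip1 and in 11 of 16 for Tnfaip3 over Nfkb2. It held in 10 of 16 for Relb over Bcl3 and in 9 of 16 for Bcl3 over Rel. The order was not tested for any pair of neighbours. The 3 subunits Nfkb2, Relb and Rel were thus the low ones, and Rela and Nfkb1, which form the classical dimer, were the abundant ones.

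Rela encodes p65, the transactivating subunit of the classical dimer (chr19:5637483-5648130, plus strand, GRCm38). Its FPKM in EAE mice ran from 8.62 in EAE 4 through a median of 12.6 to 14.2 in EAE 7. In PBS-treated mice it ran from 7.67 in PBS 3 through a median of 11.3 to 12.2 in PBS 7. In FPKM, which is scaled by library total alone, each EAE library except EAE 4 was above each PBS library. The margin was small, with 12.2 in EAE 5 against 12.16 in PBS 7. TMM factors were 1.005 to 1.032 for EAE libraries and 0.9601 to 0.9973 for PBS libraries. The order did not hold in CPM after TMM, where EAE 6, 7 and 8 overlapped with PBS 5, 7 and 8. The log2FC was 0.20 (SE 0.105, 95% interval −0.014 to 0.42), with an adjusted p of 0.323 and an unadjusted p of 0.065 in edgeR's quasi-likelihood test. On the FPKM scale, mean levels of 12.5 ± 1.74 (SD, n = 8) and 10.5 ± 1.86 differed with p = 0.0431 in a two-sided exact permutation test over 12870 divisions of the libraries, a p that is not adjusted for the 10 genes so tested. The exact permutation p of Rela ranged from 0.00218 (without EAE 4) to 0.0875 (without PBS 3) when 1 library was left out and was above 0.05 in 11 of the 16 cases. It was 0.057 to 0.0584 on log2 scales of FPKM and 0.0847 when CPM after TMM normalization replaced FPKM. Without EAE 4 the edgeR test gave an unadjusted p of 0.00801 and an adjusted p of 0.0797.

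Nfkb1 encodes p105, from which the DNA-binding subunit p50 is made (chr3:135584655-135691547, minus strand). It was the least variable of the 10 genes. In EAE mice its FPKM ranged from 9.24 to 12.3 with a median of 10.9, and in PBS-treated mice from 7.85 to 12.1 with a median of 10.1. PBS 1 lay among the highest EAE libraries, and the groups overlapped over most of their range. The log2FC was 0.10 (SE 0.087, adjusted p = 0.596 in the edgeR quasi-likelihood test), and the 95% interval of −0.081 to 0.28 was the narrowest of the set. Rel encodes c-Rel, the subunit best known from lymphocytes and myeloid cells (chr11:23736847-23770970, minus strand). Its FPKM was 1.30 to 2.86 in EAE mice (median 2.08) and 1.01 to 2.45 in PBS-treated mice (median 1.91). EAE 6, 7 and 8 gave the 3 highest values of all libraries, yet EAE 4 and EAE 5 were below most PBS libraries. The log2FC of Rel was 0.20 (SE 0.18, adjusted p = 0.615).

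Nfkb2 and Relb encode p100, the precursor of p52, and its partner RelB in the non-canonical pathway. Nfkb2 (chr19:46304320-46312385, plus strand) had FPKM values of 1.92 to 3.92 in EAE mice (median 2.85) and 1.57 to 3.31 in PBS-treated mice (median 2.74). Relb (chr7:19606217-19629438, minus strand) had FPKM values of 1.59 to 4.02 in EAE mice (median 2.47) and 1.09 to 2.57 in PBS-treated mice (median 2.25). For Relb, 4 EAE libraries were above the highest PBS library, EAE 2 being the highest, and the other 4 lay within the PBS range. The log2FC was 0.09 (SE 0.177) for Nfkb2 and 0.29 (SE 0.205) for Relb, and edgeR gave adjusted p-values of 0.843 and 0.494. With 1 library left out, it ranged from 0.0041 (without PBS 6) to 0.16 (without EAE 4) for Nfkb2 and from 0.18 (without EAE 2) to 0.37 (without EAE 1) for Relb. The FPKM of Nfkb2 relative to Nfkb1 averaged 0.261 among EAE libraries and 0.264 among PBS libraries, and that of Relb relative to Rela averaged 0.204 and 0.194. Both ratios spread more within a group than between the groups. A lncRNA and the gene Psd overlap Nfkb2 on the opposite strand, and the strand setting of the counting is not given in the sources used here.

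Nfkbia encodes IκBα, the inhibitor that NF-κB induces most directly (chr12:55489410-55492647, minus strand). It was the 1 gene with a log2FC below 0. In EAE mice its FPKM ran from 15.3 in EAE 1 through a median of 21.9 to 32.3 in EAE 8. In PBS-treated mice it ran from 13.3 in PBS 4 through a median of 25.2 to 33.1 in PBS 3. The EAE libraries formed a gap, with EAE 1 to EAE 5 at 23.8 or lower and EAE 6 to EAE 8 at 30.6 or higher, and PBS libraries lay below, within and above that gap. The log2FC was −0.09 (SE 0.179, adjusted p = 0.836 in the edgeR quasi-likelihood test). The ratio of Nfkbia to Rela, inhibitor over transactivator, was 1.23 to 2.63 in EAE mice (median 1.91) and 1.62 to 4.31 in PBS-treated mice (median 2.08), and the groups overlapped.

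Nfkbiz encodes IκBζ, an inducible nuclear member of the family that helps NF-κB switch on secondary response genes. Its FPKM (chr16:55811375-55838899, minus strand) was 4.45 to 9.71 in EAE mice (median 7.57) and 4.65 to 10.2 in PBS-treated mice (median 7.35). The same 3 EAE libraries were the highest of their group, whereas PBS 2 was above them. The log2FC was 0.01 (SE 0.169, adjusted p = 0.978 in the edgeR test). Its sign changed in 5 of 16 fits made with 1 library missing, those without EAE 6, EAE 7, EAE 8, PBS 4 or PBS 6, over a range of −0.06 to 0.11.

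Bcl3 encodes a nuclear IκB protein that binds p50 and p52 dimers. Its FPKM (chr7:19808462-19822770, minus strand) was 1.40 to 3.67 in EAE mice (median 1.91) and 0.894 to 4.35 in PBS-treated mice (median 2.096), so that the lowest and the highest library were both in the PBS group. The highest, PBS 2, stood apart from the other PBS libraries, which reached 2.44. The log2FC was 0.15 (SE 0.296, adjusted p = 0.848 in the edgeR test), and with 1 library left out it ranged from 0.025 (without EAE 6) to 0.41 (without PBS 2). Bcl3 overlaps 2 antisense genes.

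Tnfaip3 encodes A20, a ubiquitin-editing enzyme that shuts down signalling below the receptors. It varied most of the 10 genes. Its FPKM (chr10:19000910-19015657, minus strand) was 1.34 to 7.03 in EAE mice (median 5.03) and 1.19 to 6.62 in PBS-treated mice (median 3.82), with 158 to 903 counts per library. Among EAE mice, 4 libraries were between 6.81 and 7.03 and the other 4 were at 3.24 or lower, so that no library lay near the group median. The log2FC was 0.31 (SE 0.346, adjusted p = 0.696 in the edgeR test). Its 95% interval of −0.41 to 1.03 was the 1 interval that reached past 1. Tnip1 encodes ABIN-1, which binds A20 and polyubiquitin (chr11:54910785-54962917, minus strand). Its FPKM was 5.34 to 9.18 in EAE mice (median 7.42) and 4.64 to 8.27 in PBS-treated mice (median 6.99), with a log2FC of 0.11 (SE 0.129, adjusted p = 0.701). The ratio of Tnfaip3 to Tnip1 ranged from 0.146 to 0.968 in EAE mice and from 0.237 to 0.982 in PBS-treated mice.

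**Figure D2:**
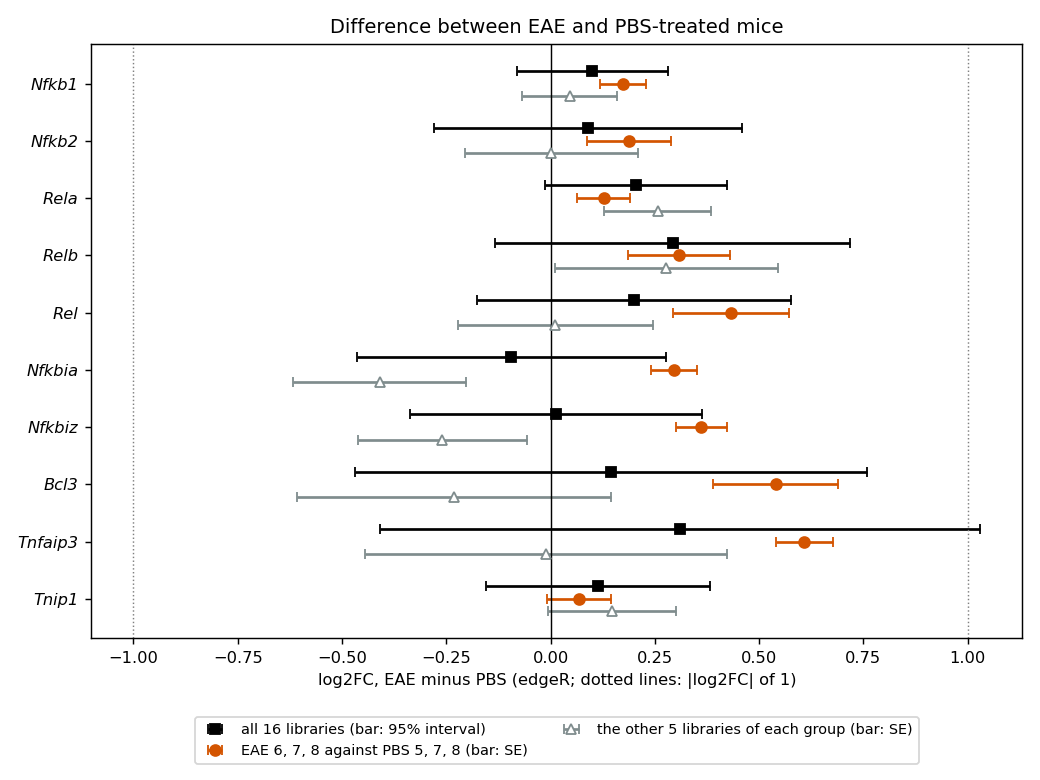
Horizontal axis, log2FC (EAE minus PBS) from edgeR for each of the 10 NF-κB genes. Black squares with 95% intervals are all 16 libraries, orange circles with SE are EAE 6, 7, 8 against PBS 5, 7, 8, and open triangles with SE are the other 5 libraries of each group. All black intervals include 0, and all 10 orange circles lie above 0 while 4 of the triangles lie below it.

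The fitted log2FC values differed between sets of libraries, but 0 of 10 genes passed the adjusted threshold in the test of this given below. Within EAE 6, 7 and 8 and PBS 5, 7 and 8, all 10 genes had a log2FC above 0. Of the 10, 6 had an adjusted p under 0.05, against 24.1% of all mRNAs tested within these libraries and 11% that were also higher in EAE mice. By unadjusted p, 7 of 10 were under 0.05, against 35.5%, and the CPM of the groups did not overlap for 8 of 10, against 37.1% of all mRNAs. The log2FC within these libraries was 0.61 for Tnfaip3 (adjusted p = 4.68e-07 in the edgeR quasi-likelihood test), 0.54 for Bcl3 (adjusted p = 0.0101), 0.43 for Rel (0.0244), 0.36 for Nfkbiz (0.00012), 0.30 for Nfkbia (0.00035) and 0.17 for Nfkb1 (0.0225). Rela and Tnip1 were the 2 genes whose CPM overlapped there, with log2FC values of 0.13 and 0.07, and in FPKM Rela did not overlap either. Because these 6 libraries were picked for their likeness in an earlier look at the same data, their small spread is part of the choice.

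Within the other 5 libraries of each group, the edgeR test put 0 of 10 genes under an adjusted p of 0.05, against 0.0745% of all mRNAs, and 0 had an unadjusted p under 0.05, against 10.8%. There 6 genes had a log2FC above 0, and Nfkbia (−0.41), Nfkbiz (−0.26), Bcl3 (−0.23) and Tnfaip3 (−0.01) did not. All 3 IκB family members thus had opposite signs in the 2 sets of libraries. In a test of this difference itself, the interaction of condition and library set, Nfkbia differed by 0.70 (unadjusted p = 0.0242, adjusted p = 0.562 in edgeR) and Nfkbiz by 0.61 (unadjusted p = 0.0401, adjusted p = 0.608), and 0 of 10 genes had an adjusted p under 0.05, against 0.0615% of all mRNAs. The unadjusted threshold was passed by 8.03% of all mRNAs. When EAE 4 and EAE 5 were left out together, 0 of 10 genes had an adjusted p under 0.05 in edgeR, while 2342 of all mRNAs did. By unadjusted p, 2 of 10 were under 0.05 in that fit, Rela among them (unadjusted p = 0.00747, adjusted p = 0.0541). The share of all mRNAs at that unadjusted threshold was not computed for this fit, so the count of 2 has no background beside it. The fit was chosen after seeing the data.

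The NF-κB genes varied more between libraries than most mRNAs did. The biological coefficient of variation between libraries of a group was 0.477 for Tnfaip3, 0.404 for Bcl3, 0.281 for Relb, 0.248 for Nfkbia, 0.246 for Rel, 0.245 for Nfkb2 and 0.234 for Nfkbiz. It was 0.179 for Tnip1, 0.147 for Rela and 0.123 for Nfkb1, and its median over 13310 mRNAs with a mean FPKM of at least 1 was 0.107. Of these mRNAs, 99.65% varied less than Tnfaip3, 99.3% less than Bcl3 and 94.8% less than Nfkbia, but 62.6% less than Nfkb1. The coefficient is larger for mRNAs of low level, as the plot of spread against level shows.

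**Figure D3:**
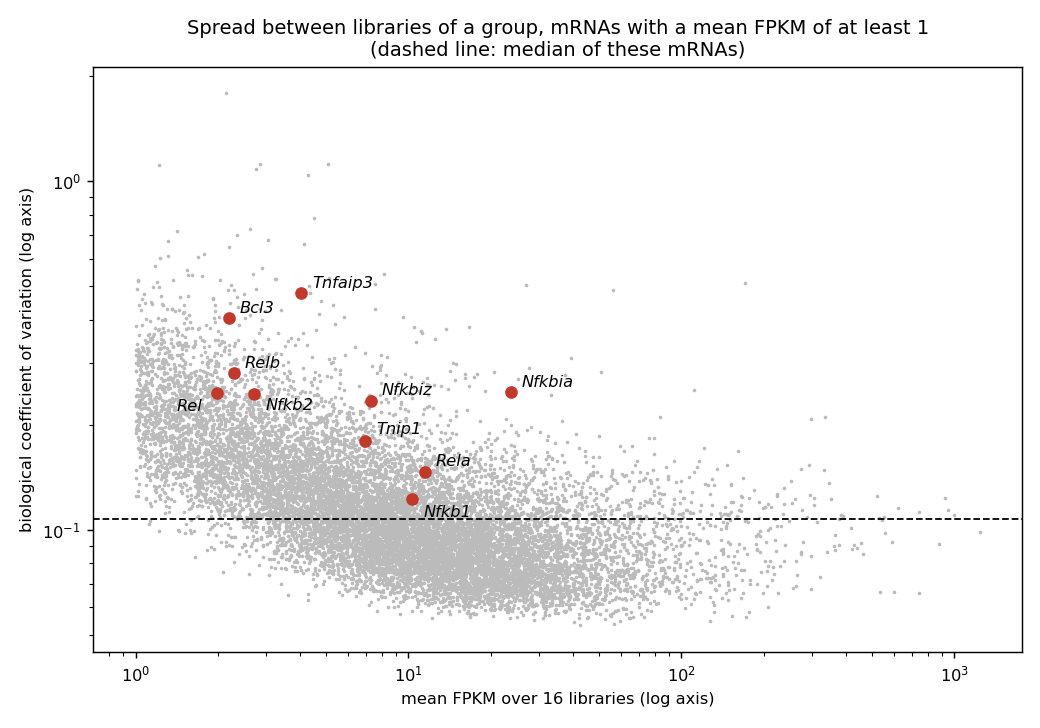
Horizontal axis, mean FPKM over 16 libraries (log axis); vertical axis, biological coefficient of variation between libraries of a group from edgeR (log axis). Each grey point is 1 of 13310 mRNAs, the dashed line is their median of 0.107, and red points are the 10 NF-κB genes, all of which lie above the line.

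The genes varied together from library to library. Over the 16 libraries, after each group's mean was subtracted from log2 CPM, all 45 pairs of genes had a Pearson r above 0 (median 0.585, range 0.265 to 0.909), and 27 of the 45 had an adjusted permutation p under 0.05. Over all pairs of the 13310 mRNAs with a mean FPKM of at least 1, 50% of coefficients were above 0 and 5.45% exceeded the median of the 45. This share is a description, since mRNAs of a library are not independent. No such share was computed for the permutation p, so the count of 27 has no background beside it. The closest pair was Nfkbia and Nfkbiz (r = 0.909, Spearman rho = 0.844, adjusted permutation p = 0.00135 and 0.003, r = 0.873 without EAE 1 and PBS 4). Nfkb1 and Rel followed (r = 0.846, rho = 0.897, adjusted permutation p = 0.00158 and 0.00135, r = 0.841 without PBS 2 and PBS 4), then Relb and Nfkbiz (r = 0.845, rho = 0.738, adjusted permutation p = 0.00288 and 0.0192, r = 0.771 without EAE 1 and PBS 4). The loosest pair was Rel and Bcl3 (r = 0.265, adjusted permutation p = 0.343). All 45 coefficients stayed above 0 without the 2 libraries farthest from the median.

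Within each set of libraries the median coefficient was lower than over all 16. Each set holds fewer libraries, and whether the co-variation differs between the sets was not tested. Within the 10 libraries outside EAE 6, 7, 8 and PBS 5, 7, 8, 42 of 45 coefficients were above 0 (range −0.20 to 0.853), and 0 had an adjusted permutation p under 0.05, the smallest being 0.0608 for Relb and Nfkbiz, while 6 had an unadjusted p under 0.05. The median of the 45 was 0.3996 there, a value that 17.8% of all pairs of mRNAs exceeded, and Nfkbia and Nfkbiz had an r of 0.845. Within the 6 alike libraries, for which no test was run, 18 of 45 were above 0, with a median of −0.0898. In the plot of group-centred values, PBS 4, PBS 6 and EAE 4 were below their group mean for all 10 genes, and the 6 alike libraries of both groups were above it for all 10. The other libraries were mixed.

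**Figure D4:**
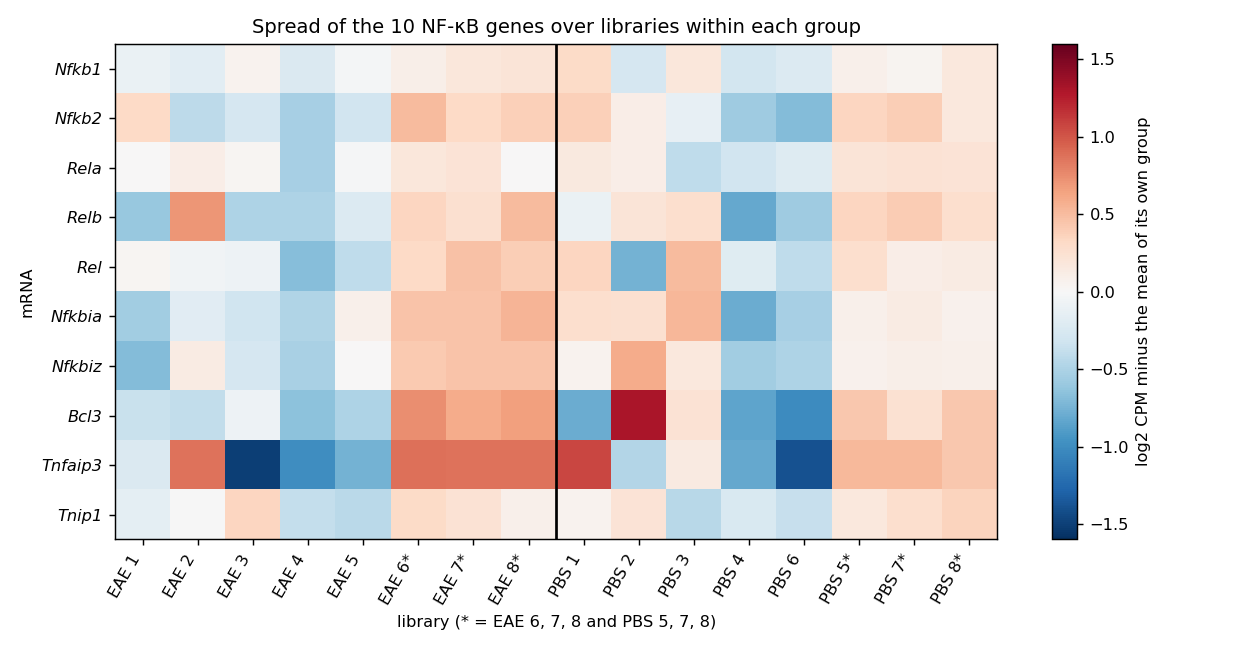
Each column is a library (5 EAE libraries, then EAE 6 to 8, then 5 PBS libraries, then PBS 5, 7 and 8, the latter marked * like EAE 6 to 8), each row 1 of the 10 NF-κB genes, and the colour log2 CPM minus the mean of its own group. The marked columns are red or pale red in both groups and EAE 4, PBS 4 and PBS 6 blue, and the rows Tnfaip3 and Bcl3 hold the strongest colours.

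Sums of some marker lists, that of the labelled microglia among them, varied with the NF-κB genes over the 16 libraries. Over 110 pairs of a gene with a list's summed FPKM, group means subtracted, 16 had an adjusted permutation p under 0.05. No share of all mRNAs was computed for these sums, so this count and those by list have no background beside them. All 10 genes had a negative coefficient with the microglial sum (−0.866 to −0.524, 6 of 10 with an adjusted permutation p under 0.05), the most negative being Nfkbia (r = −0.866, rho = −0.844, adjusted permutation p = 0.00623 and 0.00358, r = −0.835 without EAE 1 and PBS 4). EAE 4 and PBS 4, which were below their group mean for all 10 genes, had the largest microglial sums of their groups, 388 and 362. With the neutrophil sum all 10 coefficients were positive (4 of 10 with an adjusted permutation p under 0.05), the largest being Nfkb2 (r = 0.855, adjusted permutation p = 0.00623) and Bcl3 (r = 0.813, adjusted permutation p = 0.00902). With 19 immediate early genes, which are switched on within minutes of a stimulus, 9 of 10 coefficients were positive, and Nfkbia (r = 0.817, adjusted permutation p = 0.00902) and Nfkbiz (r = 0.707, adjusted permutation p = 0.0430) passed the threshold. Rel and Tnip1 passed with the astrocytic sum and Rel and Tnfaip3 with the oligodendrocyte sum, all with negative coefficients. No pair passed with the sums for monocytes, T cells, B cells, neurons, endothelial or erythroid cells. Within the 10 other libraries the microglial coefficients were still all negative (−0.802 to −0.325) and the neutrophil coefficients all positive, with 0 pairs under the adjusted threshold. The part of cell composition in the levels of the NF-κB genes was not tested.

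The mRNA whose pattern was most like each gene was sought among 13309 others with a mean FPKM of at least 1, by Pearson r of group-centred log2 CPM over 16 libraries. It was Zfp36, an mRNA-decay factor (r = 0.956), for Nfkbia, Src (r = 0.964) for Nfkbiz, Prrc2b (r = 0.977) for Bcl3 and the cytokine gene Csf3 (r = 0.926) for Tnfaip3. For the subunits it was Cluh (r = 0.944) for Rela, Tatdn2 (r = 0.920) for Nfkb1, Lrrc4 (r = 0.924) for Nfkb2, Map1s (r = 0.927) for Relb and Zfp142 (r = 0.932) for Rel, and for Tnip1 it was Fhdc1 (r = 0.938). None was itself 1 of the 10 genes. Over the 10 other libraries the same pairs had r between 0.886 and 0.975, and these coefficients are a description, since each is the largest of 13309.

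The rest of the pathway, with immediate early genes beside it, was described from fixed lists of 119 genes, of which 117 were tested. In the edgeR quasi-likelihood test 0 of 117 had an adjusted p under 0.05, with a smallest adjusted p of 0.0639, and 22 had an unadjusted p under 0.05 (18.8%, against 17.4% of all mRNAs). Of these 22, 20 were higher and 2 lower in EAE mice, whereas 7.92% and 9.52% of all mRNAs passed in each direction. With DESeq2 4 genes of the lists had an adjusted p under 0.05 (5.76% of all mRNAs), with the edgeR exact test 6 (4.17% of all mRNAs), and without EAE 4 the quasi-likelihood test called 12 (7.38% of all mRNAs). Of the 22, 9 were target genes, 4 were ligands, 4 were kinases, 2 were receptors, 2 were negative regulators and 1 was an immediate early gene.

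Upstream, 4 of 8 tested ligand genes had an unadjusted p under 0.05, all higher in EAE mice, with a list median log2FC of 0.62. Tnf had FPKM values of 0.210 to 5.24 in EAE mice (median 1.73) and 0.109 to 1.43 in PBS-treated mice (median 0.658), and Il1a 0.599 to 5.18 (median 3.10) and 0.439 to 2.20 (median 1.02). The groups overlapped for both. Their log2FC values were 1.40 and 1.19, and edgeR gave adjusted p-values of 0.169 and 0.103. Of 11 receptor genes, Tnfrsf1b, which encodes TNF receptor 2 (log2FC 0.28, adjusted p = 0.0812), and Tlr2 (log2FC 0.64, adjusted p = 0.183) had an unadjusted p under 0.05. The log2FC was above 0 for 10 of the 11, against 52.7% of all mRNAs. Cd40lg and Ccl20 had too few counts to be tested.

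In the middle of the pathway, 4 of 16 IKK complex and kinase genes had an unadjusted p under 0.05, against 17.4% of all mRNAs. The smallest p-values were those of Irak4, a kinase below Toll-like receptors (log2FC 0.43, adjusted p = 0.230 in the edgeR test), and Tbk1, an IKK-related kinase (log2FC 0.13, adjusted p = 0.242). Of the 16 adaptor and ubiquitin ligase genes, 0 had an unadjusted p under 0.05, and the lowest 2 were Traf2 (log2FC 0.17, adjusted p = 0.374) and Malt1 (log2FC 0.15, adjusted p = 0.397). The 7 other IκB family genes and modulators also gave 0, led by Nfkbil1 (log2FC 0.14, adjusted p = 0.573) and Nfkbie, which encodes IκBε (log2FC 0.27, adjusted p = 0.614). Of 14 other negative regulators, Tnip2, which encodes ABIN-2, was higher (log2FC 0.26, adjusted p = 0.236) and Tax1bp1, an A20 adaptor, lower (log2FC −0.13, adjusted p = 0.126), both with an unadjusted p under 0.05.

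Downstream, 9 of 26 tested target genes had an unadjusted p under 0.05 (34.6%, against 17.4% of all mRNAs). All 9 were higher in EAE mice, as were 7.92% of all mRNAs at that threshold, and the list median log2FC was 0.46. Tnfaip2 had FPKM values of 1.14 to 2.68 in EAE mice (median 2.02) and 0.676 to 1.56 in PBS-treated mice (median 1.11), and the chemokine gene Ccl5 1.55 to 4.28 (median 2.65) and 0.720 to 2.07 (median 1.45), from 23 to 60 counts in each EAE library and 11 to 34 in each PBS library. The log2FC was 0.75 for Tnfaip2 (adjusted p = 0.0639 in the edgeR test) and 0.98 for Ccl5 (adjusted p = 0.0646). Within the 6 alike libraries the log2FC values were 0.68 and 0.85, with adjusted p-values of 0.000279 and 0.0533 by edgeR. Within the other 10 they were 0.81 and 1.13, with adjusted p-values of 0.218 and 0.277. Both sets are parts of the 16 libraries over which these 2 genes were picked by p-value. The shared sign is therefore no separate evidence. Marker genes moved with the groups too. At an adjusted p under 0.05 by edgeR, 4 of 17 neutrophil, 1 of 17 microglial and 1 of 9 astrocytic genes were higher in EAE mice. At the same threshold 2 of 12 neuronal genes were lower, and 2.42% of all mRNAs passed in either direction. The other marker lists held 0 such genes. Sums of the marker lists are given above, and the part of cell composition in the values of ligand and target genes was not tested. Of 19 immediate early genes, 1 had an unadjusted p under 0.05, Klf2, which was lower (log2FC −0.35, adjusted p = 0.190), and the list's median was −0.03. These lists were drawn up with earlier results of the same libraries known, and whether the lists differ from the 10 NF-κB genes was not tested.

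**Figure D5:**
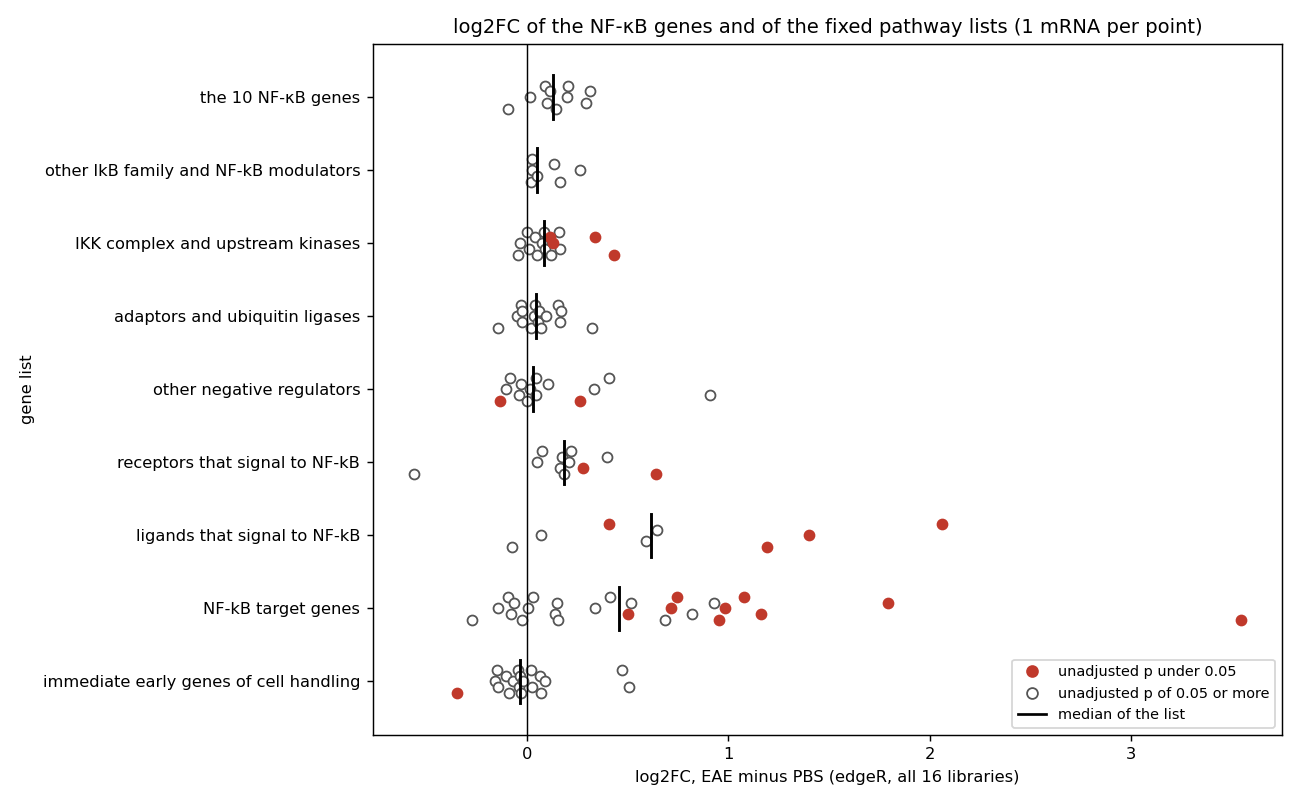
Horizontal axis, log2FC (EAE minus PBS, edgeR, all 16 libraries) of each tested mRNA, by gene list on the vertical axis. Red points have an unadjusted p under 0.05, open points do not, and black lines are list medians, 0.13 for the 10 NF-κB genes, 0.62 for the ligands and 0.46 for the targets. The point farthest to the right is Il12b, with 0 to 7 counts per EAE library, whose fitted value depends on the prior count.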

How the data were processed

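Stranded total RNA libraries labelled as microglia, from 8 EAE and 8 PBS-treated mice, were compared, grouped by the sample labels. Per the labels, the authors used bcl2fastq, HISAT2 2.1.0, HTSeq 0.11.2 and DESeq2 1.22.2, and the methods name GRCm38. The authors counted reads per mRNA and deposited the raw counts without normalization. They also deposited FPKM values, which were computed from those counts per transcript length and library total: count over total and FPKM kept 1 ratio per mRNA to within 1.15e-09 over 7749 mRNAs. The number of unused sample columns was 0, and columns of the authors' own comparisons were absent from both tables.

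For the main test, edgeR 4.0.16 (R 4.3.3) was run on raw counts with TMM normalization, quasi-likelihood fits and Benjamini-Hochberg adjustment over all mRNAs that summed to 16 counts or more, taking the DEmRNA thresholds from the methods. The strand setting of the counting is not given in the sources used here. FPKM differences were tested over all 12870 divisions of 8 against 8 libraries. Correlations used log2 CPM (prior count 0.5) minus the group mean and 100000 shuffles within groups (Python 3.11.15, scipy 1.17.1). With 200 of 17775 simulated mRNAs changed by a log2FC of 1, 94% were recovered and 3.59% of calls were wrong. The changed mRNAs were drawn at random, and each mRNA was simulated independently, without the likeness between libraries. This share therefore does not give the power for the 10 NF-κB genes, whose fitted log2FC values were all smaller. All 10 NF-κB genes were named, with the 2 smallest p-values of each pathway list and the mRNA most like each gene. Genes and lists were chosen with earlier results of these data known. Gene positions are from GENCODE M21, promoters from RefSeq (GRCm38.p6). Other normalizations, filters, tests and subsets of libraries are given below. Replicates are separate mice by the methods.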

Additional observations from a re-analysis of the deposited data

Results flagged for a closer look

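Of 20 sets of values examined (10 genes in each group), 2 held a library whose distance from its nearest neighbour was large for its group, and chance alone marks about 1 in 20. In EAE mice, Rela was at 8.62 FPKM in EAE 4, while the other 7 EAE libraries were at 12.2 to 14.2. In PBS-treated mice, Bcl3 was at 4.35 FPKM in PBS 2, while the other 7 were at 0.894 to 2.44. The microglial marker sum was 388 FPKM in EAE 4, the highest of all 16 libraries, and 265 in PBS 2. Their part in either value was not tested.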

How the results depend on the processing

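The number of NF-κB genes with an adjusted p under 0.05 stayed at 0 in every fit across all mRNAs except that within EAE 6, 7 and 8 and PBS 5, 7 and 8, where it was 6 (7 by unadjusted p). Those 6 libraries gave 4147 mRNAs under the adjusted threshold, 177 DEmRNAs, 40 pathway genes and a log2FC of 0.296 for Nfkbia. The other 5 libraries of each group gave 13 mRNAs and 6 DEmRNAs, and log2FC values of −0.26 for Nfkbiz, −0.231 for Bcl3 and −0.00979 for Tnfaip3. With all 16 libraries, 433 mRNAs and 21 DEmRNAs were called. DESeq2 called 910 mRNAs and 4 pathway genes, the edgeR exact test 745 mRNAs, 52 DEmRNAs and 6 pathway genes, and library totals without TMM 1 pathway gene, with 1 NF-κB gene (Rela) under an unadjusted 0.05. A term for the library set gave 768 mRNAs, 38 DEmRNAs, 8 pathway genes, 1 NF-κB gene by unadjusted p and −0.0197 for Nfkbiz. Leaving out 1 library gave 144 (without PBS 2) to 1317 (without EAE 4) mRNAs, 13 (without EAE 8) to 49 (without EAE 4) DEmRNAs, 0 to 12 pathway genes (12 without EAE 4), 0 to 1 NF-κB genes by unadjusted p, a log2FC of −0.0588 to 0.114 for Nfkbiz, −0.183 to −0.0128 for Nfkbia, 0.0615 to 0.146 for Nfkb1, 0.114 to 0.282 for Rel, 0.152 to 0.27 for Rela, 0.175 to 0.493 for Tnfaip3 and 0.0583 to 0.171 for Tnip1, and FPKM differences of −2.29 to 0.532 for Nfkbia and −0.0197 to 0.769 for Nfkbiz. Without both EAE 4 and EAE 5, which was tried after seeing the data, 2342 mRNAs, 77 DEmRNAs and 20 pathway genes were called. There 2 NF-κB genes had an unadjusted p under 0.05, a threshold at which the share of all mRNAs was not computed. Of the correlations between NF-κB genes, 27 of 45 passed over 16 libraries and 0 over the 10 outside the alike set. The interaction term and the marker correlations were also added after seeing the data. The cause of these changes was not tested.

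With a replicate block, 517 mRNAs and 2 pathway genes were called, 1 NF-κB gene (Rela) had an unadjusted p under 0.05, and the log2FC of Nfkbiz was −0.00163. The replicate numbers did not pair the mice: same-numbered libraries correlated with r from −0.22 to 0.554, above 0.1 in 3 of 8 pairs, and 4 of 16 libraries correlated best with their own number.

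Each NF-κB gene had at least 46 counts in every library. The libraries hold a mixture of cell types, and 1 tissue was sampled at 1 time point.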
